A study of Homo sapiens with 9 samples.

Results

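The genes described here encode the immunoproteasome and the machinery that loads peptides onto MHC class I molecules. They are PSMB8, PSMB9 and PSMB10 (the catalytic subunits of the immunoproteasome), PSME1 and PSME2 (the PA28 activator), TAP1, TAP2 and TAPBP (peptide transport and loading), and ERAP1 and ERAP2 (peptide trimming). They were measured in HCN-2, a human cortical neuronal cell line, on 9 arrays. The transfected RNA was a miR-140-3p mimic on 3 arrays, a miR-126-5p mimic on another 3 and a scrambled control on the other 3. Each transfection used 3 μL of 20 μM mimic or scrambled RNA with the reagent HiPerFect, and RNA was harvested 24 h later, so that the control cells also received the reagent and a synthetic RNA. The comparisons ask which transcripts differed between cells given a microRNA mimic and cells given the scrambled RNA. No untreated cells are among these arrays, and 1 cell line stands for the cell type. A decrease due to a mimic and an increase due to the scrambled RNA therefore cannot be told apart. A gene said below to have fallen was lower than in the scrambled control. Whether arrays of 1 group stem from separate cultures is not given in the labels, and the p-values here measure the spread between these arrays, which may be technical.

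Members were the rows of the deposited table whose annotation gives exactly 1 gene symbol, that of one of the 10 genes. This found 10 rows for 9 genes, of 36176 such rows for 33616 genes in all. PSME2 shares its row with a microRNA gene, so no value is given for it. ERAP1 had 2 rows, and the brighter one stands for the gene. Values are log2, so that a difference of 1 means a change in the linear signal by a factor of 2, and levels of different genes are not compared, because probes differ in brightness.

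Proteasomes cut cytosolic proteins into peptides. In cells exposed to interferon, the inducible subunits PSMB8, PSMB9 and PSMB10 take the places of the constitutive PSMB5, PSMB6 and PSMB7 in newly assembled particles, and PA28 docks at the ends of the particle. TAP1 and TAP2 form the transporter that moves the peptides into the endoplasmic reticulum, tapasin, encoded by TAPBP, holds the transporter next to empty class I molecules, and the aminopeptidases ERAP1 and ERAP2 trim the peptides to length. Neurons are known for low class I presentation at rest and for its induction by interferon.

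The mimicked microRNAs are shown because they define the treatments. A microRNA recognises its targets mainly through its seed, bases 2 to 8 from the 5′ end, which is in capitals in the RefSeq mature sequences (GRCh38.p14). miR-140-3p is encoded at chr16:69933142-69933162 and miR-126-5p at chr9:136670616-136670636, both on the plus strand.
hsa-miR-140-3p: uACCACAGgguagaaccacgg
hsa-miR-126-5p: cAUUAUUAcuuuugguacgcg
The seeds, ACCACAG and AUUAUUA, are different sequences.

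The promoters are shown because the members share a motif there. In RefSeq promoters of 300 bases (250 before and 50 after an annotated start site, GRCh38.p14), the core of the interferon-stimulated response element, searched as GAAANNGAA on both strands, was found for 9 of the 10 genes, in 9 of their 14 promoters. PSMB9 was the exception. Of all 35116 promoters in the same table, 8.11% hold this motif. The gamma-activated site, searched as TTCNNNGAA, was found for 2 of the 10 genes (PSMB8 and TAP1), in 2 of the 14 promoters, and 7.66% of all promoters hold it. Of the constitutive subunits, PSMB5 alone was matched to promoters. Of its 2 promoters, 0 held the response element core and 1 held the gamma-activated site. No match to the response element core overlapped a match to the gamma-activated site in the promoters of the members. A match is a run of letters and was not tested as a binding site.

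For the genes that fell with a mimic and hold a match, the stretch around the match to the response element core follows, 5′ to 3′ on the transcribed strand, with the match in capitals. TAP2 (chr6:32838759-32838827), PSMB8 (chr6:32844012-32844080, the second of 2 annotated start sites) and TAP1 (chr6:32853793-32853867, the first of 2 start sites) are on the minus strand and PSME1 (chr14:24136170-24136238) on the plus strand. TAPBP (chr6:33314054-33314128, minus strand) is added as a member with 2 overlapping matches that passed the test with neither mimic.
TAP1: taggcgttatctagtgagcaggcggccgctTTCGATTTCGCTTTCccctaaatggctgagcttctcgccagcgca
TAP2: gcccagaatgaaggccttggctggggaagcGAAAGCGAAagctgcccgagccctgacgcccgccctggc
PSMB8: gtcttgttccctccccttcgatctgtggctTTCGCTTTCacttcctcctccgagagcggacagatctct
PSME1: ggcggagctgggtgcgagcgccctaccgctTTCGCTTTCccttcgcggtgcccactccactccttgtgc
TAPBP: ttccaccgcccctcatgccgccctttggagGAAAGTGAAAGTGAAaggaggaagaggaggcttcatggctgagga
TAP1, like TAPBP, holds 2 overlapping matches. In PSMB8 the match spans the start site, in PSME1 it lies just after it, and in TAP2 and TAP1 it lies before it.

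**Figure D1:**
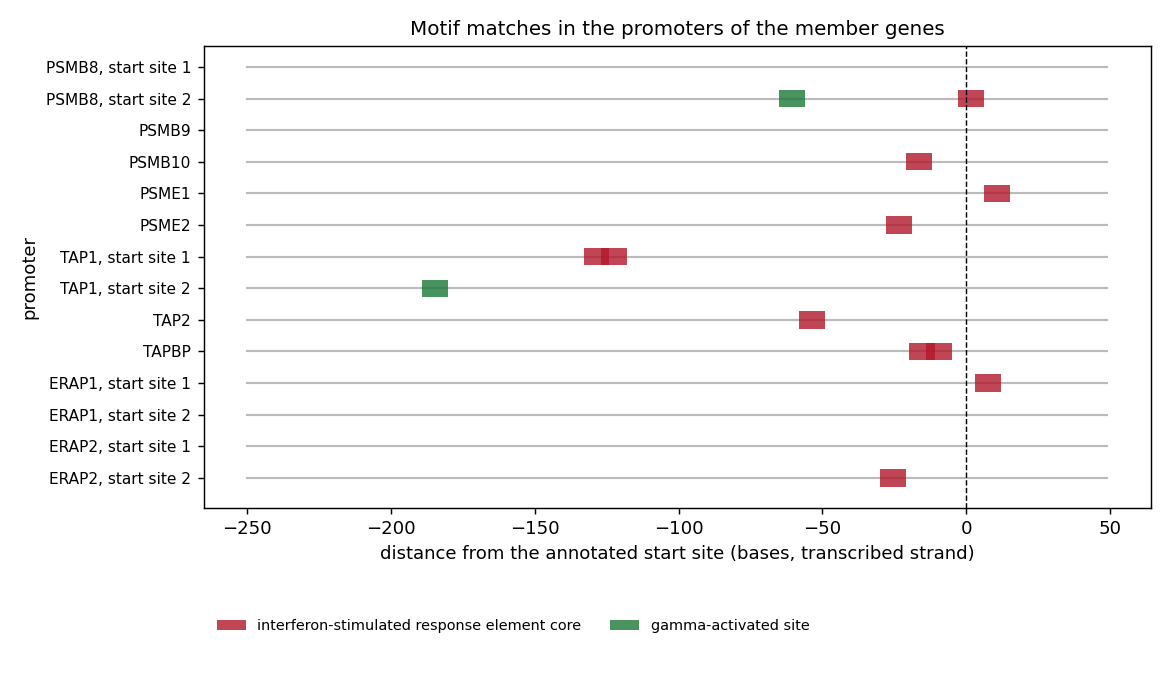
Positions of motif matches in the 14 RefSeq promoters of the 10 member genes, as the distance in bases from the annotated start site (dashed line, x axis), with a line for each promoter. Red boxes are matches to the interferon-stimulated response element core, present for 9 of the 10 genes, and green boxes are matches to the gamma-activated site, present for 2.

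Of the 10 genes, 5 lie on chromosome 6. TAP2, PSMB8, TAP1 and PSMB9 follow each other there with 0 protein-coding genes between them, inside the class II region of the MHC, and TAPBP lies further along. TAP1 and PSMB9 are transcribed away from each other, with 488 bases between the first start site of TAP1 and that of PSMB9. The matches of TAP1 therefore also lie 355 to 369 bases upstream of PSMB9, outside the promoter window used for PSMB9. ERAP1 and ERAP2 are neighbours on chromosome 5 and PSME1 and PSME2 lie close together on chromosome 14.

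The transporter genes TAP1 and TAP2 and the subunit PSMB8 fell with both mimics, and PSMB9 and PSME1 fell with the miR-126-5p mimic and did not pass with the miR-140-3p mimic, although their difference between the mimics did not pass either. The differences were 2.38-fold to 4.04-fold for the 3 genes called after miR-140-3p and 2.03-fold to 3.88-fold for the 5 called after miR-126-5p. Thus 3 of 9 members were lower after miR-140-3p at an adjusted p under 0.05 (limma, Benjamini-Hochberg over all 36176 rows), where 0.229% of all rows were called lower, and 5 of 9 after miR-126-5p, where 0.354% were. No member was called higher. Without array 1 or 2 of miR-126-5p or array 2 or 3 of the control, 3 members were called after miR-126-5p, and without limma's moderation of the variance 0 members and 0 rows passed in any comparison. With an intensity trend and robust estimation of the variance, 4 members were called after miR-140-3p and 7 after miR-126-5p, as PSME1 passed after miR-140-3p (adjusted p = 0.0229) and TAPBP and ERAP2 after miR-126-5p (0.0469 and 0.0387). Among rows above the median level PSME1 also passed after miR-140-3p (0.0422). Between the mimics 0 of 9 members were called, as were 0% of all rows. At the threshold used in the study, an unadjusted p under 0.05 with a fold change that equals a log2 difference beyond 0.32, 8 of 9 members were lower after miR-140-3p (5.16% of all rows) and 9 of 9 after miR-126-5p (6.83%), and 2 of 9, PSMB9 and TAPBP, were higher in the direct comparison of the miR-140-3p mimic with the other (5.07%).

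The arrays of the groups did not overlap, with all mimic arrays lower, for 8 of 9 members after miR-140-3p and for 9 of 9 after miR-126-5p. Over all rows the same held for 7.48% and 11%. The median log2 difference of the members was -0.89 after miR-140-3p and -1.05 after miR-126-5p, beside medians of all rows of -0.02 and -0.04, and 0.13 between the mimics, beside 0.02. The mean log2 value over the 9 members was 10.55, 10.35 and 10.48 on the miR-140-3p arrays, 10.04, 10.07 and 10.51 on the miR-126-5p arrays and 11.35, 11.35 and 11.71 on the control arrays. The third miR-126-5p array was the highest of its group and level with the miR-140-3p arrays. Both comparisons against the control use the same 3 control arrays, so their likeness is not independent. In RNA from whole cultures, fewer cells that express a gene and less of its RNA per cell cannot be told apart.

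**Figure D2:**
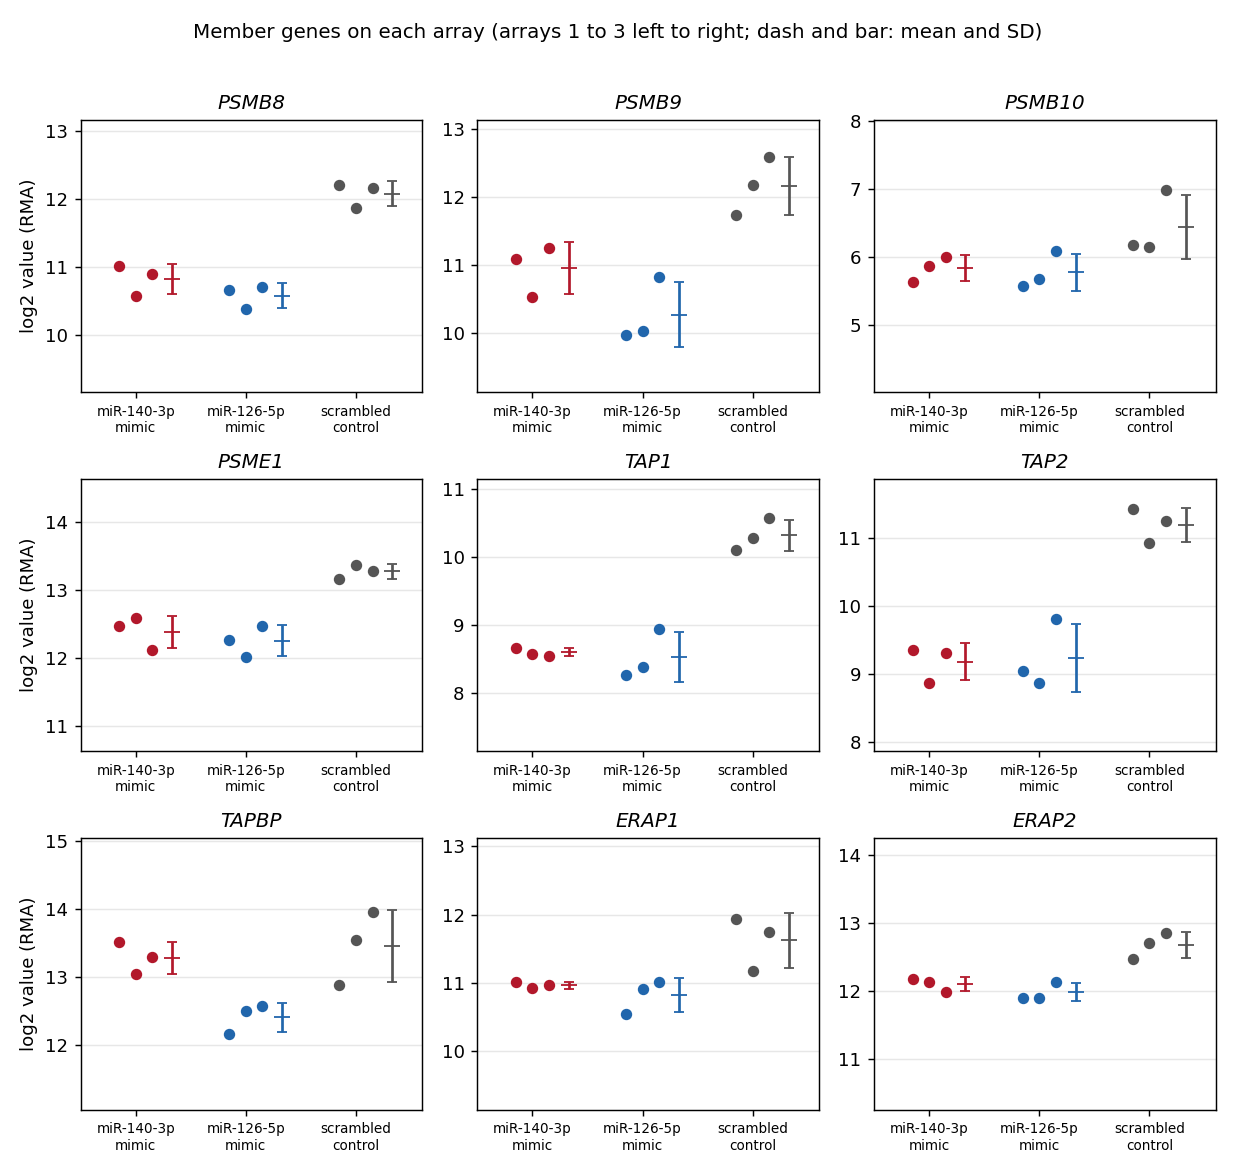
Log2 RMA values (y axis, each panel spanning 4 log2 units) of the 9 measured member genes on each array, with arrays 1 to 3 of each group from left to right and the group's mean and SD beside them. Except for TAPBP with the miR-140-3p mimic, every mimic array lies below every control array of the same gene.

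Among the catalytic subunits, PSMB8, which replaces PSMB5, had log2 values of 11.02, 10.58 and 10.89 on the miR-140-3p arrays, 10.66, 10.38 and 10.71 on the miR-126-5p arrays and 12.21, 11.87 and 12.16 on the control arrays. The 6 mimic arrays lay more than a log2 unit below the mean of the control arrays, and the mimic groups overlapped each other. The log2 difference was -1.25 ± 0.18 (SE, n = 3 per group) after miR-140-3p (adjusted p = 0.00932) and -1.50 ± 0.18 after miR-126-5p (adjusted p = 0.0017). Without array 2 of miR-140-3p or array 3 of the control, the adjusted p after miR-140-3p was 0.0617 and 0.0686.

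PSMB9, which replaces PSMB6, had log2 values of 11.09, 10.53 and 11.25 after miR-140-3p, 9.97, 10.03 and 10.82 after miR-126-5p and 11.73, 12.18 and 12.59 in the control. Its arrays were more spread within each group than those of PSMB8. It was 3.71-fold lower after miR-126-5p (log2 difference -1.89 ± 0.28, adjusted p = 0.00862). With miR-140-3p the difference was -1.21 ± 0.28 and did not pass (adjusted p = 0.184). The call after miR-126-5p was lost without array 1 or 2 of miR-126-5p or array 2 or 3 of the control, at adjusted p of 0.0572 to 0.068.

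PSMB10, which replaces PSMB7, lay near the middle of the table, at or above 55.2% of all rows. Its log2 values were 5.63, 5.87 and 6.00 after miR-140-3p, 5.57, 5.67 and 6.08 after miR-126-5p and 6.18, 6.15 and 6.98 in the control. The mimic groups lay just below the control, where the third array stood above the other two. The differences, -0.60 ± 0.24 and -0.67 ± 0.24, did not pass (adjusted p = 0.528 and 0.35), and without the third control array they were -0.33 and -0.39.

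The constitutive counterparts passed the test in no comparison. PSMB5 averaged 10.52 ± 0.14 after miR-140-3p, 10.64 ± 0.06 after miR-126-5p and 10.57 ± 0.30 in the control (SD, n = 3 each). PSMB6 averaged 9.82, 9.98 and 10.16, and PSMB7 12.75, 12.79 and 12.94, in the same order. The log2 differences of these 3 genes lay between -0.34 and 0.07 against the control, each with an adjusted p of 0.591 or more, against -0.60 to -1.89 for the inducible subunits. The difference between inducible and constitutive subunits was not itself tested.

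**Figure D3:**
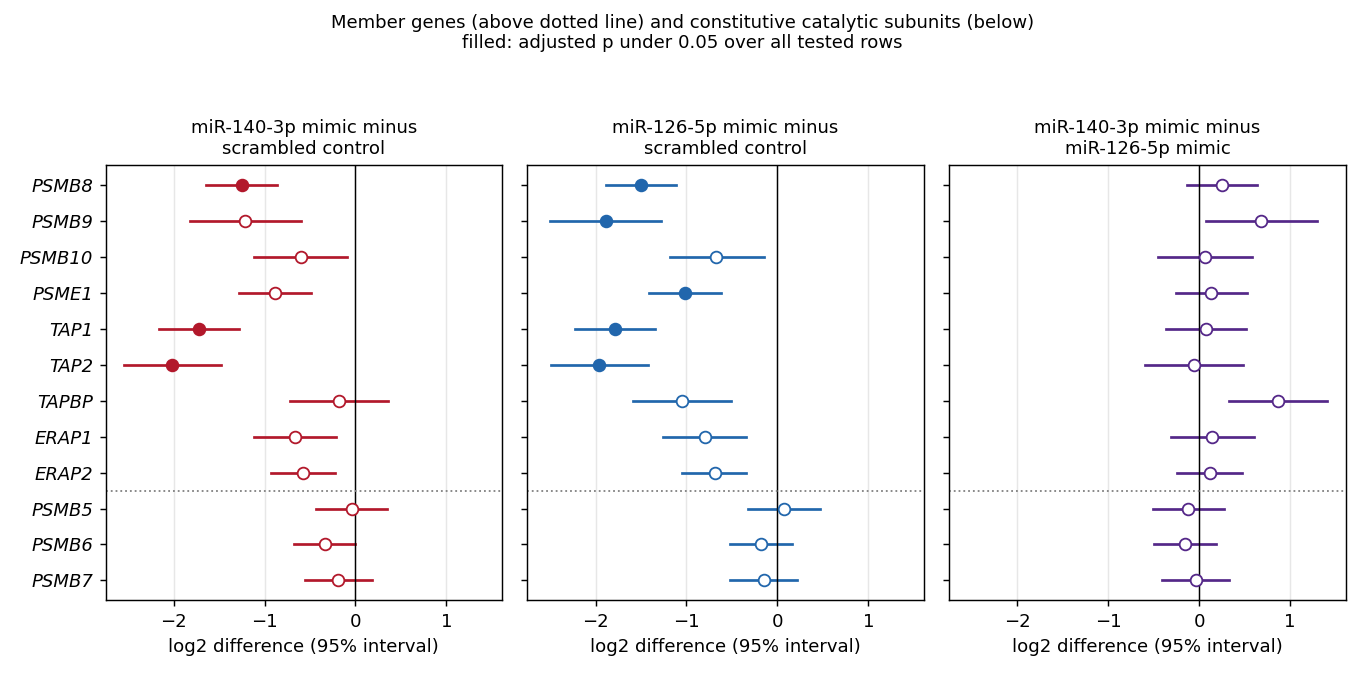
Log2 differences (x axis) with 95% intervals from limma for the 9 measured members and, below the dotted line, PSMB5, PSMB6 and PSMB7, in the comparisons of each mimic with the control and of the miR-140-3p mimic with the miR-126-5p mimic. Filled points passed an adjusted p of 0.05, 3 members after miR-140-3p, 5 after miR-126-5p and 0 between the mimics.

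PSME1, the PA28 alpha subunit, had log2 values of 12.47, 12.59 and 12.12 after miR-140-3p, 12.27, 12.02 and 12.48 after miR-126-5p and 13.17, 13.37 and 13.29 in the control. The control arrays lay close together and all mimic arrays lay below them. The difference was -1.02 ± 0.18 after miR-126-5p (adjusted p = 0.0319) and -0.89 ± 0.18 after miR-140-3p, which did not pass (adjusted p = 0.102). The call after miR-126-5p had the highest adjusted p of the 5. It held in 9 of 18 alternative settings and was lost without array 1 or 2 of miR-126-5p (0.155 and 0.183) and without array 2 or 3 of the control (0.144 and 0.15).

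TAP2, a subunit of the peptide transporter, showed the largest difference of the members with each mimic. Its log2 values were 9.36, 8.87 and 9.31 after miR-140-3p, 9.04, 8.87 and 9.81 after miR-126-5p and 11.42, 10.92 and 11.25 in the control. The highest mimic array was still more than a log2 unit below the lowest control array. The differences were -2.02 ± 0.25 (4.04-fold, adjusted p = 0.00312) and -1.96 ± 0.25 (3.88-fold, adjusted p = 0.00251).

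TAP1, its partner, had log2 values of 8.67, 8.58 and 8.54 after miR-140-3p, 8.26, 8.38 and 8.95 after miR-126-5p and 10.11, 10.28 and 10.57 in the control. The miR-140-3p arrays differed little among themselves (SD 0.06), and the third miR-126-5p array was the highest of the mimic arrays, as it was for TAP2. The differences were -1.72 ± 0.20 (3.30-fold, adjusted p = 0.00217) and -1.79 ± 0.20 (3.46-fold, adjusted p = 0.00115). Leaving out any 1 array kept the calls of TAP1 and TAP2 with both mimics, and that of PSMB8 after miR-126-5p.

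TAPBP, which encodes tapasin, was the member whose miR-140-3p arrays overlapped the control. Its log2 values were 13.52, 13.05 and 13.29 after miR-140-3p, 12.17, 12.50 and 12.57 after miR-126-5p and 12.89, 13.55 and 13.95 in the control. The miR-140-3p arrays fell inside the range of the control, while the miR-126-5p arrays lay below it. The difference was -0.18 (95% interval -0.72 to 0.36, adjusted p = 0.883) after miR-140-3p and -1.05 ± 0.25 after miR-126-5p (adjusted p = 0.136), so that neither passed. The miR-140-3p arrays were all higher than the miR-126-5p arrays, as were those of 9.12% of all rows, by 0.87 (95% interval 0.33 to 1.41), which did not pass (adjusted p = 0.456). Without array 1 of the control, the adjusted p after miR-126-5p was 0.0142.

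The trimming aminopeptidases passed the test with neither mimic. ERAP1 had log2 values of 11.01, 10.92 and 10.96 after miR-140-3p, 10.54, 10.90 and 11.01 after miR-126-5p and 11.94, 11.17 and 11.75 in the control, where the second array lay close to the mimic arrays. The differences were -0.66 ± 0.21 and -0.80 ± 0.21 (adjusted p = 0.409 and 0.19). The dimmer row of ERAP1, at or above 37.6% of all rows, gave -0.19 after miR-140-3p, where the groups overlapped, and -0.55 after miR-126-5p, and passed with neither. ERAP2 had 12.18, 12.14 and 11.99 after miR-140-3p, 11.91, 11.91 and 12.14 after miR-126-5p and 12.48, 12.71 and 12.86 in the control. The groups of mimic arrays overlapped each other and lay below the control, with differences of -0.58 ± 0.16 and -0.69 ± 0.16 (adjusted p = 0.348 and 0.136).

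The mimics were given at the same volume and stock concentration and read at the same time. By the paper's account, qPCR showed the lowest overexpression for miR-140-3p among its mimics, so the increase reached was not equal. Of the 9 members compared between the miR-140-3p and miR-126-5p mimics, none passed. The intervals of the difference, miR-140-3p minus miR-126-5p, were -0.14 to 0.64 for PSMB8, -0.37 to 0.51 for TAP1, -0.60 to 0.48 for TAP2, -0.26 to 0.53 for PSME1, -0.45 to 0.58 for PSMB10, -0.31 to 0.60 for ERAP1 and -0.24 to 0.47 for ERAP2. These leave room for differences of either sign. For PSMB9 the interval was 0.07 to 1.29, above 0, with an adjusted p of 0.519.

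Over the 9 arrays, the standardized values of the members were averaged into a profile, and as a description the Pearson correlation with it was 0.98 for TAP1, 0.974 for ERAP2, 0.966 for PSMB9, 0.958 for PSMB8, 0.947 for TAP2, 0.929 for PSME1, 0.876 for ERAP1, 0.872 for PSMB10 and 0.741 for TAPBP. The arrays form groups, so this likeness includes the step between mimic and control arrays. Other genes were ranked only among rows whose mean lay above the median of all tested rows. The 5 of them with the highest correlation were BST2 (tetherin, a surface protein that retains budding virus, 0.993), PLSCR1 (phospholipid scramblase, 0.992), RBCK1 (a subunit of the linear ubiquitin ligase, 0.991), CMTR1 (an mRNA cap methyltransferase, 0.988) and CTSS (the protease cathepsin S, 0.988). These genes were picked for their likeness on the same 9 arrays, so their values are a description. BST2 had log2 values of 7.28, 6.50 and 6.94 after miR-140-3p, 5.77, 5.58 and 7.18 after miR-126-5p and 9.25, 9.46 and 10.07 in the control. Its log2 differences were -2.69 and -3.42, those of PLSCR1 -2.25 and -2.87, of RBCK1 -0.86 and -1.01, of CMTR1 -1.43 and -1.89 and of CTSS -0.84 and -1.13, each pair against the control with miR-140-3p before miR-126-5p.

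The other proteasome genes that were measured did not pass the test in either comparison with the control. Of 18 listed genes of the 19S regulator, 15 had a row with exactly 1 gene symbol. Adjusted calls were 0 of 3 constitutive catalytic subunits, 0 of 11 other subunits of the 20S core, 0 of 15 subunits of the 19S regulator, 0 of 5 assembly factors and 0 of 3 other activators and inhibitor (PSME3, PSME4 and PSMF1). At the unadjusted threshold, 0, 3, 1, 2 and 0 of these genes were lower after miR-140-3p and 0, 2, 2, 1 and 1 after miR-126-5p. Over the 5 lists this was 6 of 37 genes, or 16.2%, with each mimic, beside 5.16% and 6.83% of all rows. The median log2 differences of these lists lay between -0.32 and 0.03 after miR-140-3p and between -0.24 and -0.09 after miR-126-5p.

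The partners of peptide loading outside the members also gave no adjusted call, with 0 of 4 loading partners (CALR, CANX, PDIA3 and TAPBPL) and 0 of 6 class I genes. At the unadjusted threshold 1 of the 4 loading partners was lower with each mimic, beside 5.16% and 6.83% of all rows. This was TAPBPL, singled out after its values were seen, with differences of -0.46 and -0.68 (adjusted p = 0.573 and 0.262). At the unadjusted threshold 5 of the 6 class I genes were lower with each mimic, beside 5.16% of all rows after miR-140-3p and 6.83% after miR-126-5p, with a median log2 difference of -0.43 after miR-140-3p and -0.54 after miR-126-5p. HLA-E, a class I molecule read by natural killer cells, had the largest differences of that list, -0.88 and -1.02 (adjusted p = 0.212 and 0.0788). It was singled out after its values were seen. The light chain B2M, also singled out after its values were seen, had differences of -0.36 and -0.40 (adjusted p = 0.546 and 0.375). The 11 genes of class II presentation gave 0 adjusted calls, with medians of 0.03 and -0.12. At the unadjusted threshold 2 of them were lower and 1 higher after miR-140-3p, beside 5.16% and 3.35% of all rows. After miR-126-5p 3 were lower and 0 higher, beside 6.83% and 3.57%.

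**Figure D4:**
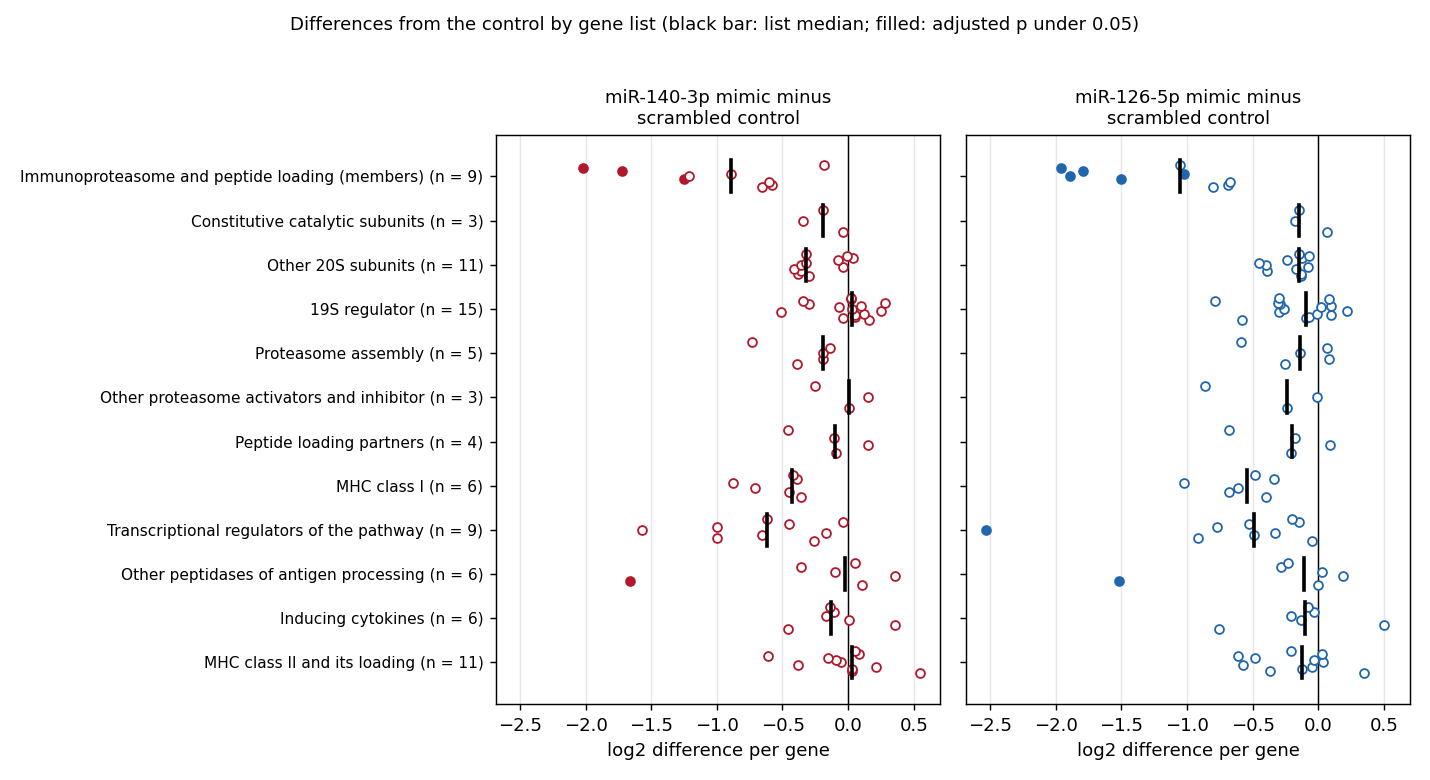
Log2 difference of each gene from the scrambled control (x axis) by gene list, with the miR-140-3p mimic on the left and the miR-126-5p mimic on the right, where bars are list medians and filled points passed an adjusted p of 0.05. The members have medians of -0.89 and -1.05, and outside them LAP3 passed with both mimics and IRF9 after miR-126-5p.

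Of 6 other peptidases that act on antigenic peptides, 1 fell, the cytosolic leucine aminopeptidase LAP3. It had log2 values of 12.83, 12.35 and 13.07 after miR-140-3p, 12.64, 12.84 and 13.20 after miR-126-5p and 14.22, 14.42 and 14.60 in the control. The groups were more than a log2 unit apart, and the differences were -1.66 ± 0.22 (adjusted p = 0.00468) and -1.52 ± 0.22 (adjusted p = 0.00567).

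Of 9 measured transcriptional regulators of the pathway, 0 passed after miR-140-3p and 1 after miR-126-5p. This was IRF9, the DNA-binding subunit of the factor through which type I interferon acts. Its log2 values were 13.64, 12.71 and 13.04 after miR-140-3p, 11.60, 11.94 and 12.98 after miR-126-5p and 14.33, 14.84 and 14.92 in the control. It fell by 2.53 after miR-126-5p (adjusted p = 0.00334), and its difference after miR-140-3p was -1.57 (adjusted p = 0.123). NLRC5, the class I transactivator, had differences of -1.0 and -0.77 (adjusted p = 0.0645 and 0.154) at a level below the middle of the table, and IRF1, an interferon-induced factor that binds the PSMB9 and TAP1 promoter, of -1.0 and -0.92 (adjusted p = 0.157 and 0.163). Both were singled out after their values were seen.

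None of the 6 cytokines known to induce these genes passed the test. IFNB1 had log2 values of 4.08, 4.26 and 4.14 after miR-140-3p, 3.93, 3.52 and 4.13 after miR-126-5p and 4.66, 4.03 and 5.18 in the control, where the mean of the background control rows of the table was 3.67 to 3.89 per array. The values of the groups overlapped and the third control array was the highest. The log2 differences of IFNB1 were -0.46 and -0.76 (adjusted p = 0.655 and 0.33), of which the one after miR-126-5p passed the unadjusted threshold. IFNG, at group means of 3.73 to 4.23, had log2 differences of 0.36 and 0.50 (adjusted p = 0.702 and 0.479). The one after miR-126-5p was higher at the unadjusted threshold. At that threshold 1 of the 6 cytokines was lower and 1 higher after miR-126-5p, beside 6.83% and 3.57% of all rows. IFNB1 and IFNG were singled out after their values were seen. An antisense transcript of the locus, PSMB8-AS1, singled out after its values were seen, had differences of -1.23 after miR-140-3p and -0.93 after miR-126-5p (adjusted p = 0.0808 and 0.182). Whether the strand of each probe set separates it from PSMB8 was not tested.

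The label of a neuronal line was set beside marker genes. Of 5 measured neuronal markers, NEFM and MAP2 had values of 8.49 to 13.77, well above the background control rows, RBFOX3 and SYP had 5.13 to 5.99, and ELAVL4 had 3.32 to 4.12, around the mean of those rows. The 5 measured fibroblast markers (COL1A1, COL1A2, DCN, LUM and PDGFRB) had values of 14.79 to 18.14, also well above them. No neuronal marker list can be ranked against a fibroblast list here, since probes differ in brightness. No neuronal or fibroblast marker passed the adjusted p in any comparison. At the unadjusted threshold 2 neuronal markers (MAP2 and ELAVL4) were lower and 1 (NEFM) higher after miR-140-3p, beside 5.16% and 3.35% of all rows. The fibroblast markers gave 0 such calls there. After miR-126-5p 1 neuronal marker (MAP2) and 1 fibroblast marker (COL1A1) were lower, beside 6.83%. Between the mimics 1 neuronal and 2 fibroblast markers were higher after miR-140-3p, beside 5.07%. The fibroblast mean was 17.01 to 17.2 after miR-140-3p, 16.84 to 16.94 after miR-126-5p and 16.89 to 17.16 in the control. Leukocytes carry the immunoproteasome without induction, and of their 5 markers PTPRC, AIF1, ITGAM and CD3E had values of 3.34 to 6.97 and were called in no comparison. CD68, a lysosomal protein also made outside leukocytes, had values of 11.83 to 13.26, well above the background control rows. It was called lower after miR-126-5p (log2 difference -1.09, adjusted p = 0.0156), with a difference of -0.89 after miR-140-3p (adjusted p = 0.0859). With CD68 included, the leukocyte list averaged 6.44 to 6.77 after miR-140-3p, 6.34 to 6.53 after miR-126-5p and 6.59 to 6.80 in the control. The part of this list in the differences of the members was not tested. All arrays correlated with each other at 0.987 to 0.994, and their medians over the tested rows were 5.61 to 5.74.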

How the data were processed

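Total RNA of transfected cells was measured on 9 Affymetrix arrays. The study's methods name Clariom S chips and the deposited description names Clariom D, and this was not settled here. The authors deposited log2 values for all arrays, and their processing notes list Partek, Affymetrix Expression Console and the method RMA, without versions. RMA corrects background, normalizes arrays to each other and summarizes probes, so a shift common to all genes would largely be lost. Values have no detection call and no depth, and the number of arrays limits the precision. The genome build is not given in the sources used here.

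The table has 138745 rows. Left out were 186 control rows, 1119 with several symbols and 101264 with none listed. The other 36176 were fitted with limma 3.58.1 in R 4.3.3 (two-sided moderated tests, 9 arrays in 1 fit without covariates) and adjusted by Benjamini-Hochberg. The procedure was tested on simulated data whose spreads came from limma's own moderated estimates, so this could not test the moderation itself. The row with the highest mean stands for a gene. The members and gene lists were chosen with earlier results of these data known. Named are all members, up to 4 genes of each other list that passed an adjusted p of 0.05, PSMB5, PSMB6 and PSMB7, and the 5 genes most like the mean member profile. Those 5 were taken from rows whose mean lay above the median of all tested rows. Genes named for another reason are marked where they appear. Promoters and microRNAs come from RefSeq tables (GRCh38.p14) matched by symbol, with 10 of 10 members matched. Alternatives were other normalizations, filters, variance models and left-out arrays.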

Additional observations from a re-analysis of the deposited data

How the results depend on the processing

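Each of the 9 members was recomputed in 18 alternative settings. Against the control, the calls of TAP1 and TAP2 with both mimics and of PSMB8 after miR-126-5p held in 17 of 18 settings, and those of PSMB8 after miR-140-3p, PSMB9 after miR-126-5p and PSME1 after miR-126-5p in 14, 12 and 9. Without moderation of the variance, which leaves few degrees of freedom for each row, 0 rows and 0 members were called in any comparison. When every row of the table except controls was tested, 55 rows were called after miR-140-3p (86 in the analysis reported above). There 3 members were called after miR-126-5p. In that setting more rows enter both the adjustment and the moderation of the variance, and their parts were not separated. With miR-126-5p, 137 rows were called in the analysis reported above. The count was 214 with an intensity trend and robust estimation of the variance together and 226 among rows above the median level. At the unadjusted threshold, 3081 rows and 8 members were called after miR-140-3p, 3763 and 9 after miR-126-5p, and 3277 and 2 between the mimics. Leaving out 1 array at a time gave 46 to 124 rows and 2 to 3 members after miR-140-3p, and 80 to 304 rows and 3 to 6 members after miR-126-5p. The lowest counts of 3 members came without array 1 or 2 of miR-126-5p or array 2 or 3 of the control, and after miR-126-5p 80 and 83 rows were called without miR-126-5p array 1 and 2, 82 without control array 3 and 304 without control array 1. After miR-140-3p, 49 rows were called without miR-140-3p array 2, 52 without its array 3, 47 without control array 2 and 46 without control array 3. The members' median after miR-126-5p was -1.333 to -1.011 over these settings, the lowest without control array 1. The sign of differences that passed no test turned for TAPBP after miR-140-3p (-0.465 to 0.0616), and between the mimics for TAP2 (-0.243 to 0.223), TAP1 (-0.0675 to 0.277) and PSMB10 (-0.0371 to 0.216). With the replicate block, 77 rows and 3 members were called after miR-140-3p and 121 rows and 4 members after miR-126-5p, where PSME1 lost its call (adjusted p = 0.0879). Arrays of the same number deviated from their group means with correlations of -0.061 to 0.107 over all rows. With 3 arrays per group these correlations cannot decide whether the numbers pair the arrays, and the labels do not say. The cause of these changes was not tested except where the construction of a setting is named. Without detection calls, dim rows such as PSMB10 and the second row of ERAP1 limit what could be seen.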
